A study of Mus musculus with 12 samples.

Results

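Liver RNA was examined for 8 genes of lipoprotein triglyceride handling. They encode 3 angiopoietin-like (ANGPTL) proteins (Angptl4, Angptl6 and Angptl8), 3 lipases (Lpl, Lipc and Lipg) and 2 proteins that lipoprotein lipase needs (Gpihbp1 and Lmf1). The genes were chosen by name, and every assembled locus that named one of them was read, which gave 15 loci of the 66468 in the table. The mice were male, wt and 17 weeks old, with the strain written C57BL/6 in the labels and C57BL/6N in the study's methods, and kept on the control diet (NCD), and these features were shared by all groups. Ad libitum mice (AL) had free access to food, fasted mice (FA) went 16 h without it, and refed mice (RF) went 16 h without food and then had it for 6 h. Each group had 4 libraries of ribosomal RNA-depleted liver RNA, but the deposited values are pooled, with 1 value per group and locus, so no spread between libraries can be given, no test was run and the depth behind a value is unknown. No source used here gives the time of day of collection, so feeding state and time of day cannot be told apart. Of 9 hepatocyte markers, 8 reached the floor used below, with a median ratio of 0.09 for FA over AL, and Alb, which encodes albumin, was listed at 0. Their summed FPKM was 6100 in AL and 6985 in FA, and without Cyp2e1 (1031 in AL and 2654 in FA) that of the other 7 was 5069 in AL and 4332 in FA. Of markers of further cells, 7 of 7 for stellate cells and fibroblasts, 3 of 4 for cholangiocytes, 3 of 3 for erythroid cells and 0 of 4 for lymphocytes reached it.

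Triglycerides travel in blood inside lipoproteins, and lipoprotein lipase (encoded by Lpl) releases fatty acids from them at the wall of capillaries. The protein encoded by Gpihbp1 carries the enzyme across the endothelial cell and holds it there, and LMF1 is a chaperone of the endoplasmic reticulum that lets lipoprotein lipase and its relatives fold. ANGPTL4 inhibits the lipase, mainly in fat tissue, and ANGPTL8 takes part in inhibiting it in muscle and heart. The liver is the main source of hepatic lipase (Lipc), while adult liver is known to make little Lpl.

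Levels are FPKM, fragments scaled to the length of the transcript and to the number of mapped fragments. Scaling to length lets levels of different genes be set beside each other, but such comparisons are approximate. The extent of the assembled transcripts was not checked, and Alb was listed at 0. A ratio is log2 of 2 FPKM values after adding 0.1 to each, which pulls the ratios of low genes towards 0. A gene is called higher or lower where its locus reached an FPKM of 0.5 in either group and the ratio was 1 or more in size, that is 2-fold. Where a gene had several loci, the locus with the highest mean FPKM of AL and FA is called its main locus. In the comparison of FA with AL, 8 of 8 main loci reached the floor, 1 was called higher and 1 lower. Among all 23776 loci above the floor, 3.71% were called higher and 4.68% lower. The median ratio of the 8 genes was -0.21, against -0.02 over all loci.

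Values for RF come from a second table, which holds RF and FA. Its entries name single transcripts of the same loci, so its FA value can be smaller than that of the whole locus. RF is set beside AL only where the FA values of both tables agreed within 10%, which held for 57.3% of the loci above the floor, for 7 of the 15 loci and for 4 of the 8 main loci (Angptl4, Angptl8, Lpl and Lipg). In RF against FA, 6 main loci reached the floor, of which 1 was called higher and 1 lower. The shares among all 16487 loci were 5.27% higher and 5.21% lower. In RF against AL, 0 of the 4 main loci that could be compared were called higher and 1 lower, with 3.33% and 3.94% of all 13189 loci called higher and lower.

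**Figure D1:**
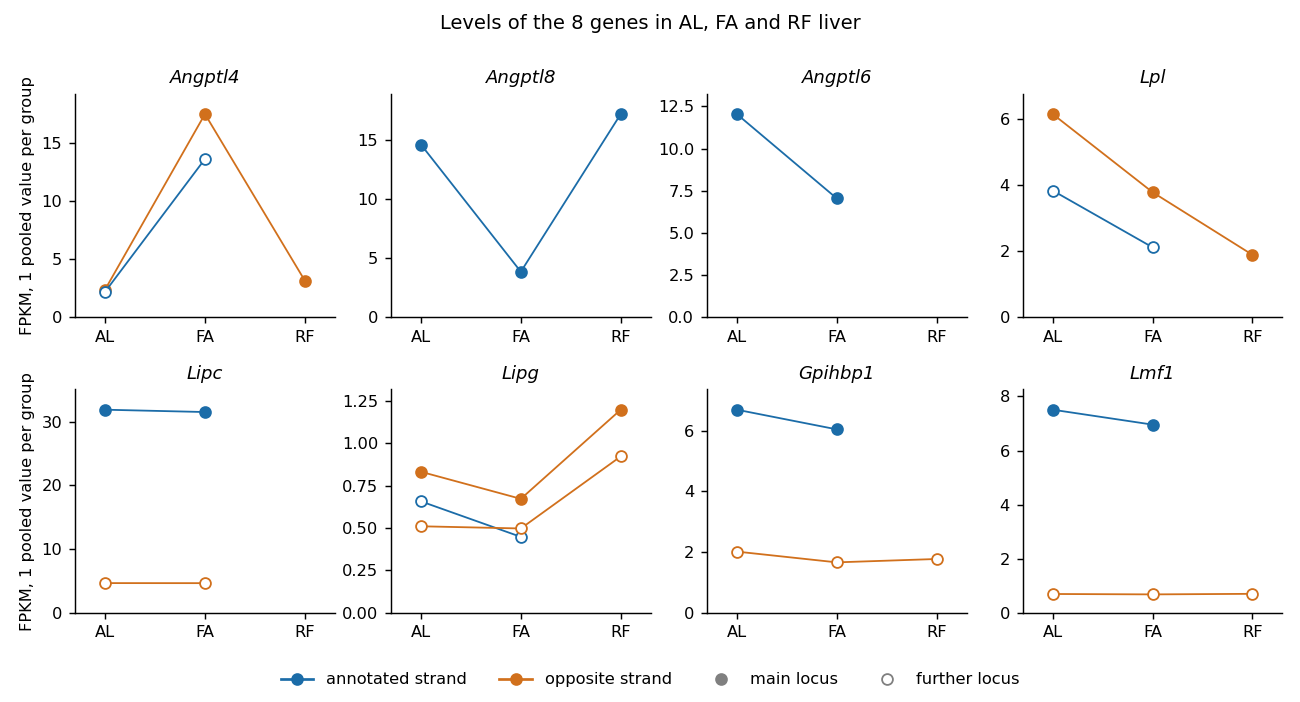
FPKM (vertical axis, from 0, 1 pooled value per group) of every locus of the 8 genes in AL, FA and RF liver. Filled points are main loci, open points further loci, and RF is drawn only where the FA values of both tables matched. Angptl4 peaks in FA at 17.5, Angptl8 is lowest in FA at 3.85, and Lpl is lowest in RF at 1.89.

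The inhibitors of lipoprotein lipase gave the largest ratios of the 8 genes in both comparisons with FA, in opposite directions. Angptl4 had an FPKM of 2.38 in AL, 17.5 in FA and 3.15 in RF at its main locus. FA stood above both fed groups. The FA level was 7.11-fold that of AL after adding 0.1 to each (log2 ratio 2.83), which lay at percentile 99.6 of all loci. The RF level was lower than FA by a log2 ratio of -2.44, at percentile 0.843. RF and AL differed by a log2 ratio of 0.39, within the 2-fold limit.

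Angptl4 lies on chromosome 17 (GRCm38, 33773750 to 33781830) on the minus strand. Its main locus was assembled on the other strand over the same interval, although the libraries were strand-specific, and such loci are called opposite-strand loci here. What they represent was not tested. The locus on the annotated strand had an FPKM of 2.19 in AL and 13.6 in FA, a log2 ratio of 2.58, so both loci of the gene were past the limit in the same direction. In the table of RF and FA the entry for the annotated-strand locus was close to 0 in both groups, and no refeeding ratio is given for it. The refeeding ratio of Angptl4 therefore comes from the opposite-strand locus alone.

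Angptl8 had the reverse pattern. It had an FPKM of 14.6 in AL, 3.85 in FA and 17.2 in RF. FA stood below both fed groups. The log2 ratio of FA over AL was -1.90 (3.73-fold lower, percentile 1.76), and that of RF over FA was 2.13 (4.38-fold higher, percentile 98.7). RF exceeded AL by a log2 ratio of 0.23, within the limit. This single locus of the gene was on the annotated strand and its FA values matched, so all 3 ratios rest on the same entry. The interval listed for this locus is 85.9 kb, far longer than the gene of 1838 bp, and covers all of its host gene Dock6.

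Angptl8 lies on chromosome 9 (GRCm38, 21835510 to 21837347) on the plus strand, inside an intron of Dock6, a guanine nucleotide exchange factor gene on the minus strand (21799860 to 21852635). In the GENCODE annotation this is intron 14 of a Dock6 transcript of 49 exons, 5109 bp long, with 1868 bp before Angptl8 and 1403 bp after it. Because Angptl8 starts within another gene, the sequence before its start is shown. The 250 bases before the start, chr9:21835260-21835509 on the plus strand, are from the RefSeq table of GRCm38.p6, and the capitals mark a GTTAAC motif and an ATAAAA motif.
Angptl8 promoter: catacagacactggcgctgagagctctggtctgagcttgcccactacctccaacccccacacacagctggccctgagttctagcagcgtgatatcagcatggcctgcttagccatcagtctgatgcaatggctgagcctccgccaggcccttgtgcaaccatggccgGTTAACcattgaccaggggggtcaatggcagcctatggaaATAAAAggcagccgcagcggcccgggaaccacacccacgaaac

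The GTTAAC motif, the core of sites that hepatocyte nuclear factor 1 can bind, lies 83 to 78 bases before the start. Of 32851 promoter windows of this length, 2.56% held it on either strand. The TATA-like ATAAAA lies 43 to 38 bases before the start, and 17.0% of windows held it on either strand. Both motifs were picked after the sequence had been read. Neither strand of this window matched the E-box CACGTG, which 6.02% of all windows held. The nuclear receptor half-site AGGTCA, held by 14.0% of windows, had no match either. The same was true of the forkhead site GTAAACA, held by 3.17%. It was true of the CCAAT box, held by 33.8%. It was true of the TATA box in the form TATAAA, held by 12.4%, and of the classical sterol regulatory element (0.192%). Promoter entries were found for 4 of the 8 genes (Angptl6, Angptl8, Lipc and Lmf1), and among them the half-site and the CCAAT box occurred in Lipc.

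A locus of the host gene had values close to those of Angptl8. This locus, named Dock6 and on the minus strand, had an FPKM of 18.6 in AL and 4.90 in FA, a log2 ratio of -1.90, the same to 2 decimals as that of Angptl8. A further Dock6 locus on the plus strand had 2.03 in AL and 1.51 in FA, with a log2 ratio of -0.40. The deposited table lists the Angptl8 locus and both Dock6 loci over one interval of 85.9 kb (chromosome 9, 21766773 to 21852635), so the extent of each assembled transcript is not known from it. Whether fragments of one gene entered the value of the other was not tested.

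**Figure D2:**
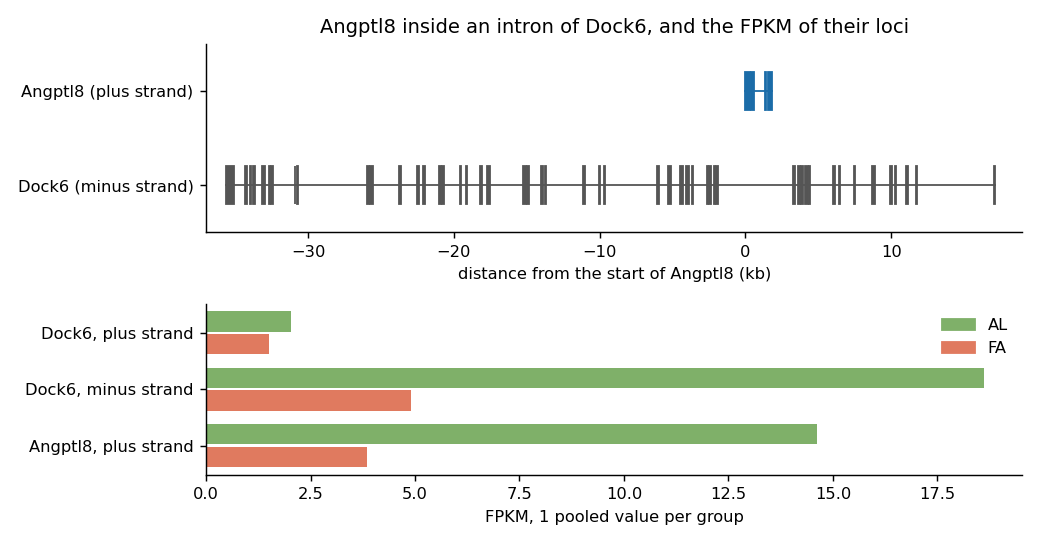
Top, exons (boxes) of Angptl8 and of the Dock6 transcript with most exons, by distance from the start of Angptl8 in kb. Bottom, FPKM (1 pooled value per group) of the Angptl8 locus and of the 2 Dock6 loci in AL and FA, where the minus-strand Dock6 locus (18.6 and 4.90) follows Angptl8 (14.6 and 3.85).

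The order of both inhibitors in FA was the reverse of that in AL and RF. Angptl8 exceeded Angptl4 by 6.15-fold in AL and by 5.46-fold in RF, and Angptl4 exceeded Angptl8 by 4.55-fold in FA, as quotients of FPKM without an added constant. These quotients set loci of different strands beside each other.

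Angptl6, a secreted liver protein linked in mice to energy expenditure, had an FPKM of 12.1 in AL and 7.05 in FA. FA was lower by a log2 ratio of -0.77, at percentile 6.89 of all loci but within the 2-fold limit. In the other table the FA value was 5.47, which is 22.5% below, so RF cannot be set beside AL at the 10% limit. Within that table RF stood at 7.29, a log2 ratio of 0.41 over FA, again within the limit. The gene lies on chromosome 9 (20873808 to 20879727, minus strand), and its locus was on the annotated strand.

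Among the lipases, Lpl was called lower in RF than in AL. Its main locus had an FPKM of 6.16 in AL, 3.79 in FA and 1.89 in RF. The ratio of FA over AL was -0.69 on the log2 scale, within the limit, and that of RF over FA was -0.97, just within it. RF was 3.15-fold lower than AL (log2 ratio -1.65, percentile 1.43), which made Lpl the gene called in RF against AL. Lpl was thus placed unlike Angptl4 and Angptl8, whose RF levels were within 2-fold of AL.

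Lpl lies on chromosome 8 (68880491 to 68907448, plus strand), and its main locus was an opposite-strand locus. The annotated-strand locus had 3.84 in AL and 2.12 in FA, a log2 ratio of -0.83, close to that of the main locus. Its entry in the table of RF and FA was 0.0212 in RF and 0.0351 in FA, below the floor, so the low RF level of Lpl rests on the opposite-strand locus. In bulk liver, fewer cells of a type and less RNA per cell cannot be told apart.

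Since Lpl is made in several cell types, markers of other cells are given beside it. Of 8 Kupffer cell and macrophage markers, 8 reached the floor, and their summed FPKM was 29.3 in AL and 24.5 in FA. In FA against AL, 1 of these (Marco) was called higher and 0 lower, where 3.71% of all loci were called higher and 4.68% lower. Marco had 0.365 in AL and 0.979 in FA, and reached the floor only in FA. Cd5l, the one of the 8 markers with matching FA values, had 4.71 in AL, 4.16 in FA and 2.77 in RF, at an opposite-strand locus. Of 6 adipocyte markers only Fabp4 reached the floor, at 2.53 in AL and 1.66 in FA, Lep and Retn were listed at 0 in AL and FA, and Adipoq, a defining marker, was at 0.0306 in AL and listed at 0 in FA. All 3 striated muscle markers with a locus (Ckm, Mb and Myh7) were listed at 0 in AL and FA. A listed 0 does not show absence, because Alb is also listed at 0. The part of Kupffer cells in the Lpl values was not tested.

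Lipc, which encodes hepatic lipase, had the highest level of the 8 genes in AL and in FA and hardly differed between them. Its main locus had an FPKM of 31.9 in AL and 31.5 in FA, a log2 ratio of -0.02. The other table held 9.19 for FA and 6.31 for RF, part of the locus, with a log2 ratio of -0.53. A further locus on the opposite strand, which also named the pseudogene Gm3436, had 4.66 in AL and 4.65 in FA. Gm3436 lies within Lipc on the other strand (chromosome 9, 70852576 to 70853415, within 70798128 to 70952226), and the second table names that locus for Gm3436 alone. It had 1.17 in FA and 1.58 in RF there, a log2 ratio of 0.41, in the opposite direction to the main locus, and neither value was past the limit.

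Lipg, which encodes endothelial lipase, an enzyme that acts on the phospholipids of high-density lipoprotein, had the lowest level of the 8 genes in AL, FA and, among the 4 comparable, RF. The main locus had an FPKM of 0.832 in AL, 0.672 in FA and 1.20 in RF. RF was the highest of the groups, by a log2 ratio of 0.75 over FA and 0.48 over AL, neither past the limit. A second opposite-strand locus had 0.510, 0.497 and 0.922 in AL, FA and RF, with RF highest again. The annotated-strand locus had 0.657 in AL and 0.448 in FA, and only 0.0900 in RF in the other table, where its FA value was close to 0. These levels lie near the floor of 0.5, and the number of fragments behind them is unknown.

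The partners of the lipases differed little between AL and FA. Gpihbp1, which encodes the capillary anchor, had an FPKM of 6.69 in AL and 6.05 in FA, a log2 ratio of -0.14. Its opposite-strand locus had 2.02 in AL, 1.66 in FA and 1.77 in RF, with log2 ratios of -0.26 for FA over AL, 0.09 for RF over FA and -0.18 for RF over AL. Lmf1, the lipase chaperone gene, had 7.51 in AL and 6.96 in FA, a log2 ratio of -0.11. Its opposite-strand locus had 0.695, 0.681 and 0.701 in AL, FA and RF, the smallest spread between the groups among the 7 loci with matching FA values. For neither gene did the main locus have a usable value in the table of RF and FA. Of 8 endothelial markers, 8 reached the floor and 0 were called in FA against AL, where 3.71% of all loci were called higher and 4.68% lower. The 8 markers had a median ratio of -0.23 and a summed FPKM of 47.1 in AL and 42.1 in FA. Their part in the values of Gpihbp1 and Lipg, which endothelial cells express, was not tested.

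**Figure D3:**
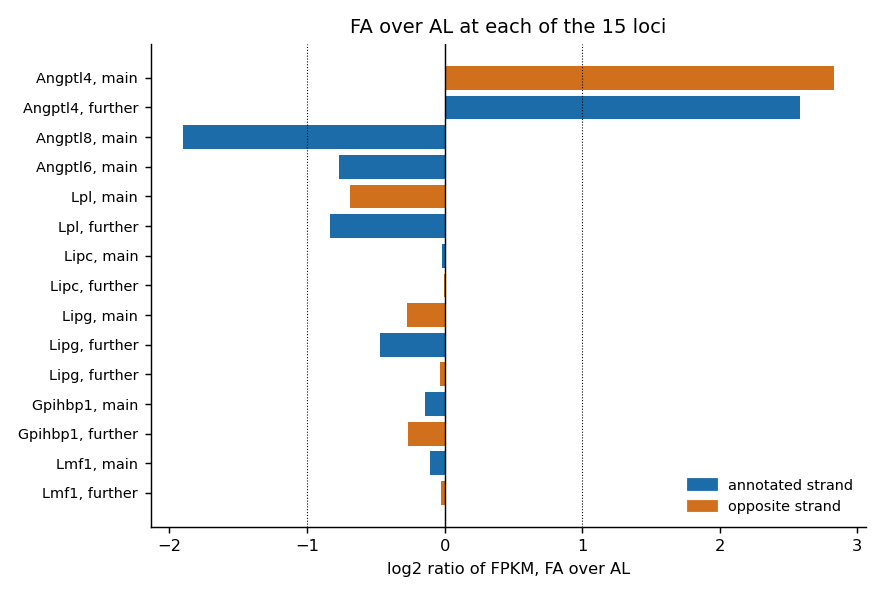
Log2 ratio of FPKM in FA over AL (horizontal axis, dotted lines at the 2-fold limit) for each of the 15 loci, coloured by whether the locus lay on the annotated or the opposite strand of its gene. Both Angptl4 loci lie above 2.5 and the Angptl8 locus at -1.90, and the other 12 loci lie within the limit.

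Of the 15 loci, 8 lay on the annotated strand and 7 on the opposite one, which also held 3 of the 8 main loci (Angptl4, Lpl and Lipg). Over all loci above 0 with known strands, 36.9% lay opposite to the gene they name. In AL, the FPKM of the main opposite-strand locus was 1.09 times that of the annotated-strand locus for Angptl4 and 1.60 times for Lpl, but 0.301 times for Gpihbp1, 0.146 times for Lipc and 0.0926 times for Lmf1. In FA these quotients were 1.28, 1.79, 0.275, 0.148 and 0.0978. The opposite-strand signal thus ranged from a small part of the annotated one to more than all of it. In 2805 genes with 1 locus of each kind above the floor, the FA over AL ratios of both loci had a Pearson r of 0.77 and a Spearman rho of 0.73 across genes, which share libraries and are not independent replicates. The annotated-strand locus was past the limit in 146 of these genes, and the opposite-strand locus was past it in the same direction in 101 and in the other direction in 1.

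**Figure D4:**
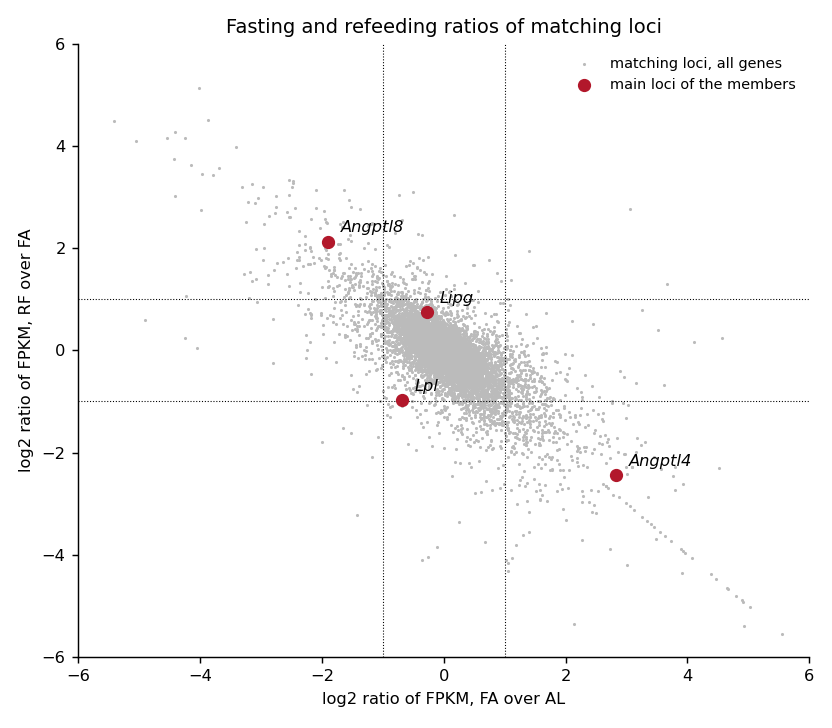
Log2 ratio of FPKM in FA over AL (horizontal) against RF over FA (vertical) for 12869 loci with matching FA values, of which 24 lie outside the axes, with dotted lines at the 2-fold limit. Both axes hold the same FA values, which by itself gives a falling slope. Angptl4 lies at 2.83 and -2.44, Angptl8 at -1.90 and 2.13, and Lpl at -0.69 and -0.97, apart from the falling band.

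The protein-coding genes with the most similar ratios were listed for the 3 genes that had matching FA values and were called in a comparison. Likeness was the distance between the pairs of ratios (FA over AL, RF over FA), over 3 groups, so it describes 2 numbers per gene. For Angptl8 the 5 closest were Slc10a2, the ileal bile acid transporter gene (distance 0.0899), Pstpip2, Mvk, the mevalonate kinase gene, Gimd1 and Tuba1c (0.441). Slc10a2 had an FPKM of 6.74 in AL, 1.70 in FA and 7.34 in RF. For Lpl they were Spon2 (0.0830), Ube2u, Epb41l3, Sgk2 and Tctex1d2 (0.209), of which Sgk2, a kinase gene, had 8.53, 5.81 and 3.21 in AL, FA and RF.

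Angptl4 had no neighbour as close, since its nearest, Acot1, which encodes an acyl-CoA thioesterase, stood at a distance of 0.715. The others were RP23-234F23.1, Pck1, which encodes phosphoenolpyruvate carboxykinase, Cyp3a59 and Filip1l (0.981). Acot1 had an FPKM of 2.34 in AL, 17.4 in FA and 5.21 in RF, beside 2.38, 17.5 and 3.15 for Angptl4. Of the 15 loci listed, 14 were opposite-strand loci and that of Pstpip2 was on the annotated strand.

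Of the 12 genes listed for the handling of lipoprotein lipase, 12 reached the floor and 0 were called in FA against AL, with a median ratio of -0.20. This list holds heparan sulfate carriers, the proprotein convertases that cut the lipase and ANGPTL proteins, and folding factors of the endoplasmic reticulum. Sort1, the sorting receptor gene, had the lowest log2 ratio of FA over AL (-0.87), at an opposite-strand locus. It had 6.26 in AL, 3.38 in FA and 4.12 in RF. The next lowest ratio was that of Calr, a chaperone gene, with 219 in AL and 143 in FA (-0.61). Both genes were within the limit. Over all loci in FA against AL, 3.71% were called higher and 4.68% lower. The 12 apolipoproteins and cofactors were held by 11 loci, since Apoc2 and Apoc4 shared one, and of these 1 was called higher and 0 lower, at a median of 0.05. This was Apoa4, with 8.41 in AL, 33.7 in FA and 22.8 in RF, which stayed above AL in RF by a log2 ratio of 1.43.

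Of 11 other lipases and related enzymes, 0 were called higher and 1 lower in FA against AL, at a median of -0.04. The gene called was Pnpla3, a lipid droplet protein gene, with 0.940 in AL, 0.0910 in FA and 0.292 in RF. Its values come from an opposite-strand locus, which reached the floor only in AL. Over all loci 3.71% were called higher and 4.68% lower. Ces1d, a carboxylesterase gene, was called higher in RF than in FA and AL, with 131 in AL, 160 in FA and 336 in RF. Pnpla2, which encodes adipose triglyceride lipase, had 6.56 in AL and 13.0 in FA, a log2 ratio of 0.98 just within the limit.

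Lists of genes that respond to known metabolic signals are given as context for Angptl4 and Angptl8, and they are not independent evidence, since their behaviour in these data was known when they were drawn up. Of 15 targets of PPAR alpha, the nuclear receptor for fatty acids, 9 were called higher and 0 lower in FA against AL, with a median ratio of 1.22. The largest were Cyp4a14 (6.01 in AL and 542 in FA), Cyp4a10 (12.6 and 521), Acot1 and Vnn1 (0.644 and 4.63). The locus read for Cyp4a10 also named Cyp4a30b and Cyp4a31, so its values are not those of Cyp4a10 alone. Angptl4, with a ratio of 2.83, stood beside Acot1 (2.84). Of 12 lipogenic and insulin-induced genes, 0 were called higher and 11 lower, with a median of -2.94. The lowest ratios were those of Thrsp (-5.42, at an opposite-strand locus), Fasn (-4.27), Acly (-3.05) and Elovl6 (-3.03). The ratio of Angptl8, -1.90, lay nearer to 0 than the median of these genes. In RF against FA, 7 PPAR alpha targets had entries above the floor, of which 0 were called higher and 2 lower (median -0.86). Of 5 lipogenic genes, 4 were called higher and 0 lower (median 2.00). The ratios of Angptl4 and Angptl8 were -2.44 and 2.13. Over all loci in RF against FA, 5.27% were called higher and 5.21% lower. Some of these entries were a small part of their locus. That of Cpt1a, which was called lower, was 0.133 in RF and 0.519 in FA, against 72.9 for its locus in FA. Among the lipogenic genes, only Thrsp had matching FA values. Of 7 glucocorticoid-responsive genes, 3 were called higher and 0 lower in FA against AL (Pck1, Per1 and Fkbp5), with a median of 0.80. The shares over all loci in FA against AL were 3.71% higher and 4.68% lower. In RF against FA, 3 of the 7 genes reached the floor, of which 0 were called higher and 1 (Pck1) lower, at a median of 0.17. The entry read for Pck1 was 0.0954 in RF and 0.513 in FA, just above the floor. It was a small part of the locus, which had 606 in FA, so the call does not describe the whole locus.

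**Figure D5:**
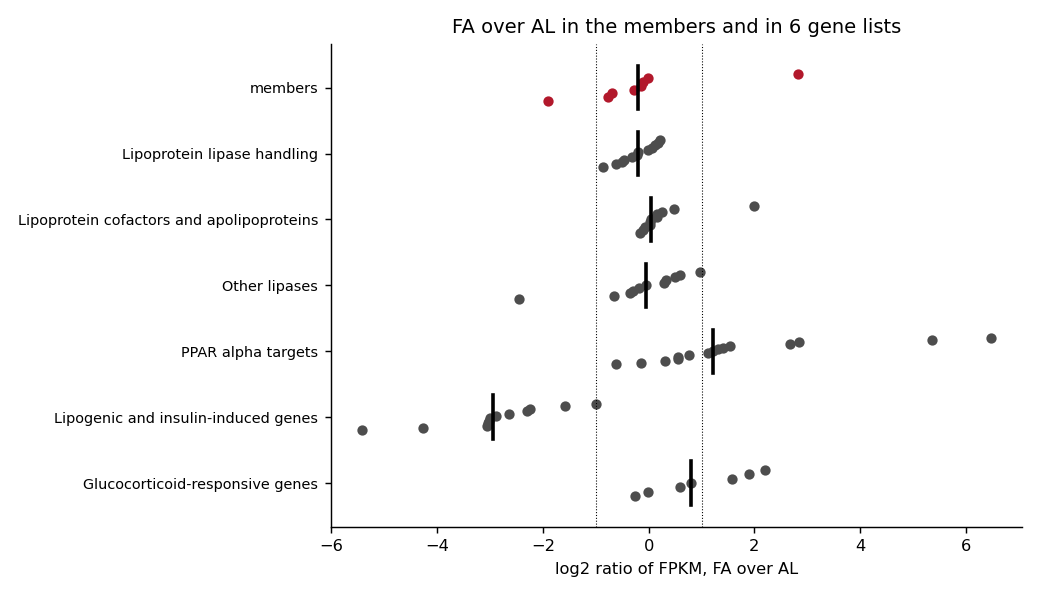
Log2 ratio of FPKM in FA over AL (horizontal axis, dotted lines at the 2-fold limit) for the main locus of each of the 8 genes (top row) and of the genes in 6 lists (Apoc2 and Apoc4 as 1 locus), with the median as a bar. The 8 genes have a median of -0.21 with Angptl4 and Angptl8 on either side, the PPAR alpha targets one of 1.22 and the lipogenic genes one of -2.94.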

How the data were processed

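Strand-specific libraries of ribosomal RNA-depleted total RNA from mouse liver were sequenced, 12 in all. According to the submitters' processing notes and the study's methods, ribosomal reads were removed with Bowtie2 2.2.9, the rest were aligned to GRCm38 with STAR 2.6.0c, and transcripts were assembled and compared with the Cufflinks suite 2.2.1 (Cuffdiff). The authors deposited FPKM values, pooled by Cuffdiff to 1 value per group and locus, in 2 tables of 66468 loci. These hold no counts, so depth and precision are unknown, and no source used here states how FPKM was scaled between libraries. Columns with the authors' own fold changes, test statistics, p-values and calls were not used.

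Groups were taken from sample titles. Ratios were computed as log2 after adding 0.1 to each FPKM, at a floor of 0.5, with pandas 2.3.3 and numpy 2.4.6, and plotted with matplotlib 3.10.9. The computation of the calls was checked on simulated tables with known fold changes and no noise. This checks the arithmetic only, and not how reliable calls from pooled values are. All 8 genes are named with every locus. Of 8 lists, 6 are given, and 2 that hold items left out are not reported here. From each list given, up to 4 genes past the limit with the largest ratio are named, and for called genes with matching FA values the 5 nearest protein-coding genes (1 name per locus, FPKM of 1 or more, FA matching). Sort1, Calr, Pnpla2 and the marker genes were named after their values were seen. The genes, lists and rules were chosen with earlier results of these data known. Strand was read from the numbering of loci, which runs through the plus strand and then the minus strand of each chromosome. Of 25457 loci at 0 in AL and FA with known strands, 99.97% fell on the annotated strand. Gene positions came from the GENCODE annotation of GRCm38. Alternatives varied the added constant, the floor, the fold limit, centring, the choice of locus and the FA match.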

Additional observations from a re-analysis of the deposited data

How the results depend on the processing

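The count of called genes in FA against AL was 2 under the main rule and 4 at a 1.5-fold limit, where Angptl6 (-0.77) and Lpl (-0.69) were added. In RF against FA it was 2, and 4 at a 1.5-fold limit, where Lpl (-0.97) and Lipg (0.75) were added. Without an added constant Lpl passed the 2-fold limit, which made 3. With annotated-strand loci, an alternative chosen after seeing the data, the count in RF against FA was 1 of 3 genes with a value (Angptl8). In RF against AL the count was 1, and it was 0 with annotated-strand loci and 0 with FPKM summed over all loci of a gene, since Angptl8 alone then had a value. Of 178 values of single genes under 12 alternatives, 173 stayed on their side of the limit, 5 newly passed it, 0 dropped below it and 0 changed direction as a called value. Called values that an alternative removed are not among the 178, such as Angptl4 in RF against FA with annotated-strand loci. Changes of the floor and of the FA match could add or remove a value but not alter it. Reading only loci that name 1 gene repeated every main value, since each main locus already named 1 gene. A changed fold limit moved the limit and left the ratios as they were. Centring subtracted the median over all loci, -0.02 for FA over AL, -0.01 for RF over FA and -0.02 for RF over AL. The 173 values thus include many that could not change or could hardly change.

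No paired analysis was possible because the pooled values carry no replicate numbers, so leaving out a replicate was not run either. The pooled values set the limits here. Whether a ratio rests on 1 library was not tested. RF levels were set beside AL for 4 of the 8 genes, and for 3 of these (Angptl4, Lpl and Lipg) at opposite-strand loci.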
